A study of Homo sapiens with 9 samples.

Results

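The mRNAs described here encode the cytosolic HSP70 chaperone HSPA8, the stress-inducible HSP70 proteins HSPA1A and HSPA1B, and co-chaperones that work with them: HSPA4 and HSPH1 of the HSP110 family, the J proteins DNAJA1 and DNAJB1, the BAG protein BAG3 and the small heat shock protein HSPB1. The values described are those of all exon windows of these 9 genes in a table of cross-link counts, 1172 of 2564772 exon windows, and 7 of the 9 genes had windows. The counts came from enhanced cross-linking and immunoprecipitation (eCLIP), which joins protein to RNA with ultraviolet light, recovers the RNA that comes down with 1 protein, and reads the position at which reverse transcription stopped. The protein was malate dehydrogenase 2 (MDH2), an enzyme of the tricarboxylic acid cycle in mitochondria, and the cells were untreated Huh7, a line from a human hepatocellular carcinoma. 3 groups of 3 libraries were compared: immunoprecipitation with an MDH2 antibody (MDH2 IP), immunoprecipitation with an isotype-matched immunoglobulin (IgG IP), and the size-matched input (SMI), lysate that was not immunoprecipitated but cut from the same size range of the membrane. All groups were cross-linked, and the IP libraries went through 14 PCR cycles and the SMI libraries through 9. No sample carried a change of genotype, 1 cell line was used, and nothing in the labels says whether replicates came from separate cultures, so p-values measure the spread between these libraries.

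HSP70 proteins bind exposed hydrophobic stretches of unfolded proteins and release them in a cycle of ATP hydrolysis. J proteins bring substrates to HSP70 and speed up the hydrolysis, HSP110 and BAG proteins exchange the nucleotide, and small heat shock proteins hold unfolded proteins without ATP. HSPA8 is made in unstressed cells at high levels, whereas HSPA1A, HSPA1B, DNAJB1, HSPH1, BAG3 and HSPB1 are targets of the heat shock factor HSF1. In hepatocytes, as in other cells, the network also keeps newly made precursors of mitochondrial proteins unfolded until they are imported.

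The exon windows summed to 5078220, 4028920 and 3249974 counts for MDH2 IP, 3651665, 4657949 and 4472647 in SMI, and 1134432, 603353 and 506441 in IgG IP, so the IgG values below have the largest counting error. Each window spans 50 nt and the next starts 20 nt further on, so that a cross-link site could enter up to 3 windows and the counts are not counts of independent molecules. Levels are given as CPM, counts per 1000000 exon-window counts after TMM scaling. 10 of 10 hepatocyte markers had counts in every SMI library, with a summed level of 11700 to 14700 CPM in SMI, 9480 to 12200 CPM in MDH2 IP and 6540 to 11400 CPM in IgG IP. Of 7 markers of blood, fibroblast and endothelial cells, 3 had counts in every SMI library, and their sum of 128 to 167 CPM in SMI, 133 to 207 CPM in MDH2 IP and 56.2 to 107 CPM in IgG IP was mostly LYZ. PTPRC, CD3E, COL1A1 and VWF had at most 6 counts in any library.

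Positions are on GRCh38 with GENCODE v44. HSPA8 (ENSG00000109971.13) lies on chromosome 11 from 123057489 to 123063230 on the minus strand and had 184 exon windows in 8 listed exons. HSPA4 (ENSG00000170606.13) lies on chromosome 5 from 133052013 to 133106449 on the plus strand with 232 exon windows, and HSPH1 (ENSG00000120694.19) on chromosome 13 from 31134973 to 31162388 on the minus strand with 315. DNAJA1 (ENSG00000086061.15) is on chromosome 9 from 33025273 to 33039907, plus strand, with 114 exon windows, and DNAJB1 (ENSG00000132002.7) is on chromosome 19 from 14514769 to 14560391, minus strand, with 125. BAG3 (ENSG00000151929.9) occupies chromosome 10 from 119651380 to 119677819 on the plus strand with 125 exon windows, and HSPB1 (ENSG00000106211.8) chromosome 7 from 76302673 to 76304295 on the plus strand with 77. HSPA1A and HSPA1B, the neighbouring and nearly identical stress-inducible HSP70 genes at chromosome 6 from 31815543 to 31817946 and from 31827738 to 31830254, had 0 windows in the table and were not analysed here. Of the protein-coding genes that start between 29 and 33 Mb of chromosome 6, 19 of 154 had windows, against 798 of 897 on the rest of that chromosome.

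The sequences under the strongest windows show where along these mRNAs cross-links were counted. Each is the middle 30 bases of a 50-nt window of GRCh38, written on the strand of the gene. The 10 bases in capitals also lie in both neighbouring windows, except in the HSPA8 first exon. That window lies at the edge of its listed exon and has no overlapping neighbour beyond it. The first, from the 5′ untranslated first exon of HSPA8, had more counts than any other window of the 7 genes. The coding window is the strongest in the sixth exon of HSPA8, the intron window lies in the listed exon of HSPA8 that was higher in MDH2 IP than in SMI, and the HSPB1 window is the strongest of its last exon, in the 3′ untranslated region.
HSPA8 first exon, chr11:123062074-123062103, minus strand: tgtggcttccTTCGTTATTGgagccaggcc
HSPA8 sixth exon, chr11:123059162-123059191, minus strand: tcctctttccCTTGGTATTGaaactgctgg
HSPA8 first intron, chr11:123061738-123061767, minus strand: gtggagccagCGTTTTCTTTcacccagttc
HSPB1 last exon, chr7:76304194-76304223, plus strand: cccctgctgcCGCCACTGGCtgtgcctccc

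The first-exon window of HSPA8 had 95, 67 and 100 counts after MDH2 IP, 86, 49 and 103 in SMI, and 40, 2 and 8 in IgG IP. The coding window had 67, 33 and 51 counts after MDH2 IP, 44, 40 and 88 in SMI, and 27, 4 and 3 in IgG IP. In both windows the MDH2 IP and SMI counts overlapped. The intron window had 7, 4 and 7 counts after MDH2 IP, 0, 2 and 0 in SMI, and 2, 2 and 4 in IgG IP, and the HSPB1 window 26, 11 and 19 in MDH2 IP, 12, 14 and 12 in SMI, and 5, 0 and 1 in IgG IP.

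HSPA8 carried the most counts of the 7 mRNAs in every library, 47.1% to 63.6% of their summed CPM. Its level was 744, 443 and 1070 CPM in the MDH2 IP libraries, 746, 555 and 1070 CPM in SMI and 876, 252 and 711 CPM in IgG IP. The 3 groups overlapped throughout, and the spread inside each group was wider than the distance between group means of 753 ± 316, 791 ± 262 and 613 ± 323 CPM (SD, n = 3). In the gene-level comparison of MDH2 IP with SMI the log2 fold change was −0.10 with a 95% interval of −0.72 to 0.52 (edgeR quasi-likelihood test, Benjamini-Hochberg adjusted p = 0.856). Against IgG IP it was 0.25 with an interval of −0.53 to 1.02 (edgeR adjusted p = 0.812). Both intervals include 0. HSPA8 reads may also fall on processed pseudogene copies, whose handling beyond the limit of 10 alignments per read is not given in the sources used here.

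The HSP110 proteins HSPA4 and HSPH1 exchange nucleotide on HSP70. HSPA4 had 177, 164 and 182 CPM in MDH2 IP, 188, 167 and 231 CPM in SMI and 157, 96.4 and 163 CPM in IgG IP. MDH2 IP and SMI overlapped, and the MDH2 IP libraries all exceeded the IgG IP libraries by a margin that was narrow at its nearest point. Its log2 fold change was −0.20 (SE 0.15, edgeR adjusted p = 0.407) against SMI and 0.28 (SE 0.23, edgeR adjusted p = 0.6) against IgG IP. HSPH1 had 120, 62.7 and 147 CPM in MDH2 IP, 102, 72.9 and 180 CPM in SMI and 120, 41.8 and 130 CPM in IgG IP, all groups overlapping. For HSPH1 the log2 fold changes were −0.13 (SE 0.36, edgeR adjusted p = 0.826) against SMI and 0.12 (SE 0.39, edgeR adjusted p = 0.921) against IgG IP.

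DNAJA1, a J protein of class A that delivers substrates to HSPA8, had 67.9, 39.8 and 100 CPM in MDH2 IP, 80, 51 and 126 CPM in SMI and 66.3, 43.4 and 63.3 CPM in IgG IP. The groups overlapped, and the log2 fold change of −0.34 had an interval of −1.05 to 0.38 (edgeR adjusted p = 0.559). DNAJB1, the main class B partner of HSP70 after heat shock, had 60.4, 56.6 and 92 CPM in MDH2 IP, 65.2, 37.7 and 71.1 CPM in SMI and 40.7, 30.5 and 84.4 CPM in IgG IP. The 3 groups of DNAJB1 overlapped, with a log2 fold change of 0.23 against SMI (interval −0.29 to 0.75, edgeR adjusted p = 0.584). Against IgG IP the log2 fold changes were 0.21 for DNAJA1 and 0.42 for DNAJB1, with edgeR adjusted p of 0.817 and 0.616. TECR overlaps DNAJB1 on the opposite strand.

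BAG3, which couples HSP70 to small heat shock proteins and to autophagy, had the lowest level of the 7. It reached 38, 22 and 41.4 CPM in MDH2 IP, 26.5, 20 and 50.2 CPM in SMI and 30.1, 11.2 and 32.6 CPM in IgG IP. The groups overlapped, and the log2 fold changes were 0.04 (SE 0.35, edgeR adjusted p = 0.952) against SMI and 0.40 (SE 0.40, edgeR adjusted p = 0.685) against IgG IP.

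HSPB1, the small heat shock protein also called HSP27, had 121, 102 and 161 CPM in MDH2 IP, 78.3, 83.2 and 78.9 CPM in SMI and 87.5, 59.5 and 90.1 CPM in IgG IP. The MDH2 IP libraries all exceeded the SMI and IgG IP libraries, and the SMI libraries lay within 1.06-fold of each other. HSPB1 was 1.56-fold higher in MDH2 IP than in SMI, a log2 fold change of 0.64 with an interval of 0.28 to 1.0 (edgeR adjusted p = 0.0386). Of the 7 mRNAs, 1 passed at gene level, where 8.6% of 13923 genes were called higher and 10.7% lower. The call was lost (edgeR adjusted p of 0.0762 to 0.14) when MDH2 IP replicate 1 or 3 or any of the 3 SMI libraries was left out, and was kept without MDH2 IP replicate 2, while the log2 fold change stayed between 0.45 and 0.78. Over IgG IP the log2 fold change was also 0.64 (interval 0.15 to 1.14), and it did not pass (edgeR adjusted p = 0.235).

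**Figure D1:**
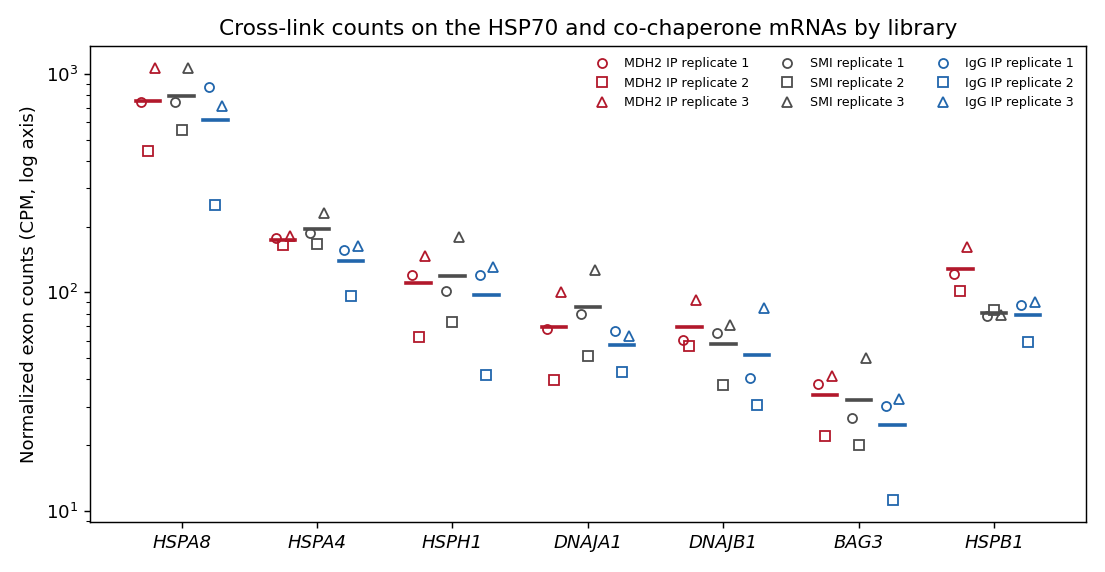
Normalized exon counts (CPM, log axis) of the 7 mRNAs in each library, with colour for the group, symbol for the replicate number and a bar at the mean of 3 libraries. The MDH2 IP libraries of HSPB1, at 102 to 161 CPM, lie above all SMI and IgG IP libraries, and for HSPA8, HSPH1, DNAJA1, DNAJB1 and BAG3 the 3 groups overlap.

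Against IgG IP, 0 of the 7 mRNAs passed by edgeR, with 1 at an unadjusted p under 0.05 (HSPB1) and 0 by DESeq2, where 0.302% of 12573 genes were called higher and 1.8% lower. The 7 log2 fold changes over IgG IP ran from 0.12 to 0.64 with a median of 0.28, beside 0.04 over all genes tested, and all 7 were above 0. In MDH2 IP over SMI the median of the 7 was −0.10 beside 0.005 over all genes, and 3 of 7 were above 0. In IgG IP over SMI 0 of 7 passed by edgeR, 0 had an unadjusted p under 0.05 and 0 passed by DESeq2, where 9.58% of 12788 genes were called higher and 5.98% lower. That median was −0.32 beside −0.11 over all genes, and HSPA4, whose IgG IP libraries were all below its SMI libraries, had −0.45 (edgeR adjusted p = 0.231). The 3 comparisons share libraries pair by pair, so their values are not independent of each other.

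**Figure D2:**
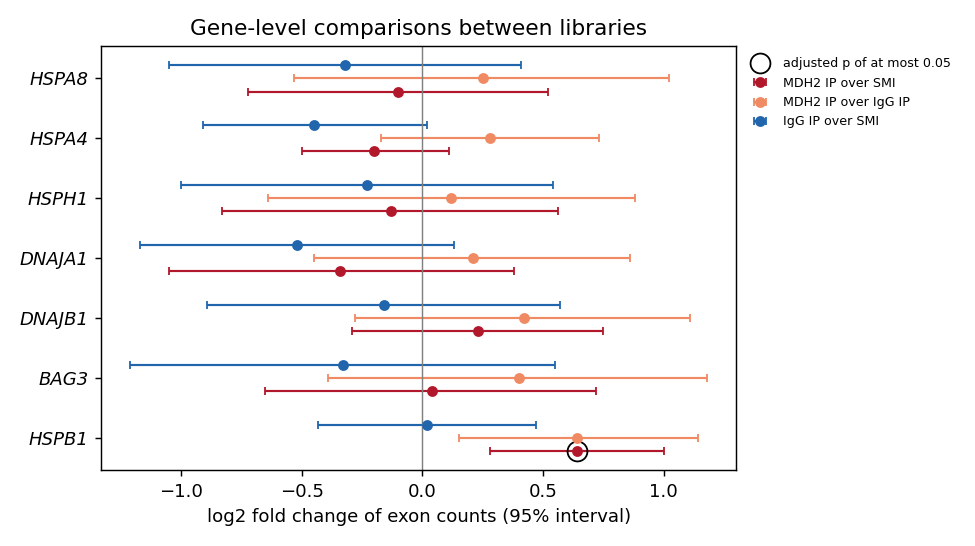
Log2 fold changes of exon counts with 95% intervals for the 7 mRNAs in MDH2 IP over SMI, MDH2 IP over IgG IP and IgG IP over SMI, with a ring where the adjusted p was at most 0.05. HSPB1 in MDH2 IP over SMI, at 0.64, has the only ring.

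The mRNAs varied together from library to library. MDH2 IP replicate 2 had the lowest and MDH2 IP replicate 3 the highest CPM of its group for 7 of 7 mRNAs, and IgG IP replicate 2 was the lowest of its group for 7 of 7. Among the SMI libraries replicate 2 was the lowest for 6 and replicate 3 the highest for 6, HSPB1 being the exception in both. The 7 summed to 1330, 890 and 1800 CPM in MDH2 IP, 1290, 986 and 1810 CPM in SMI and 1380, 535 and 1280 CPM in IgG IP. BAG3 spread most, 4.46-fold between its highest and lowest library, and HSPA4 least, 2.39-fold. What moved the replicates together was not tested.

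The genes whose level followed that of HSPA8 most closely over the 9 libraries were H2BC18 (Pearson r = 0.991), MCM6 (r = 0.989) and H2BC3 (r = 0.984) among 13977 genes, by log2 CPM with a prior count of 2. H2BC18 and H2BC3 encode replication-dependent histones H2B, and MCM6 a subunit of the replicative helicase. H2BC18 had 76.9, 44.4 and 92 CPM in MDH2 IP, 76.3, 54.9 and 103 CPM in SMI and 85.8, 22.5 and 65.2 CPM in IgG IP, with replicate 2 lowest in each group as for HSPA8. Among the chaperone mRNAs r with HSPA8 was 0.967 for HSPH1, 0.943 for BAG3, 0.86 for DNAJA1, 0.857 for HSPA4, 0.702 for DNAJB1 and 0.559 for HSPB1. The points share library, depth and scaling, and r is given as a description.

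Because longer mRNAs have more windows, levels were compared between genes per 100 exon windows. Listed exons can span introns, so this is not a level per length of mRNA. Of the 77 HSPB1 windows, 31 lie in the intron between exons 1 and 2. SMI holds cross-linked RNA of the size range cut from the membrane and does not measure the amount of each mRNA. In SMI HSPA8 had 430 CPM per 100 windows, HSPB1 104, HSPA4 84.1, DNAJA1 75.1, DNAJB1 46.4, HSPH1 37.5 and BAG3 25.8. In MDH2 IP the same quantity was 409 for HSPA8, 166 for HSPB1, 75 for HSPA4, 60.8 for DNAJA1, 55.8 for DNAJB1, 34.9 for HSPH1 and 27 for BAG3. The order of the 7 was the same in both groups. From HSPA4 down to BAG3, each neighbouring pair in SMI differed by less than the replicate SD of at least 1 of its members.

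Exon by exon, 56 exons of the 7 mRNAs had at least 10 counts in 3 of the 6 MDH2 IP and SMI libraries. Of these 1 was higher in MDH2 IP and 2 were lower, where 2.66% of 58684 exons were called higher and 5.52% lower. Exon numbers are those of the table and run from 5′ to 3′. The higher exon was exon 4 of HSPA8, with 46, 22 and 51 counts after MDH2 IP, 5, 8 and 15 in SMI and 14, 7 and 11 in IgG IP. The MDH2 IP libraries all exceeded the SMI libraries also in CPM, with 8.65, 5.37 and 15.1 CPM against 1.42, 1.84 and 3.53 CPM, and the log2 fold change was 1.86 (SE 0.49, edgeR adjusted p = 0.0258). The IgG IP libraries, at 12.4, 11.2 and 21.1 CPM, were also all above SMI, and MDH2 IP over IgG IP was −0.61 (edgeR adjusted p = 0.669). This exon entered the test through its MDH2 IP counts, since only 1 SMI library reached 10.

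The neighbouring exon 3 of HSPA8 had 23, 16 and 14 counts after MDH2 IP, 2, 1 and 6 in SMI and 8, 1 and 2 in IgG IP, a log2 fold change over SMI of 2.24 that did not pass (SE 0.71, edgeR adjusted p = 0.0635). Both of these listed exons lie inside the first intron of the MANE Select transcript of HSPA8, the reference transcript of the annotation: exon 4 from 123061588 to 123061833 and exon 3 from 123061869 to 123062032. The first exon of that transcript, from 123062064 to 123062136, is in the listed exon 2, for which MDH2 IP over SMI was −0.04 (edgeR adjusted p = 0.949). The remaining HSPA8 exons tested ran from −0.50 to −0.13.

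DNAJA1 exon 9, next to last in the listed gene, had 12, 3 and 9 counts after MDH2 IP and 22, 17 and 31 in SMI, with 4, 0 and 2 in IgG IP. Its MDH2 IP counts were all below its SMI counts, and it was lower in MDH2 IP by −1.81 on the log2 scale (SE 0.54, edgeR adjusted p = 0.0457). It entered the test mainly through SMI, since only 1 MDH2 IP library reached 10. HSPA4 exon 12 had 32, 16 and 18 counts after MDH2 IP, 37, 33 and 56 in SMI and 6, 0 and 2 in IgG IP. It was lower in MDH2 IP by −1.23 (SE 0.37, edgeR adjusted p = 0.0479), and in counts, too, MDH2 IP and SMI did not overlap. At the other extreme in HSPA4, exon 14 had 29, 27 and 12 counts after MDH2 IP and 7, 6 and 10 in SMI, a log2 fold change of 1.24 that did not pass (SE 0.52, edgeR adjusted p = 0.16).

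These calls depended on single libraries and on settings. Of the 3 exons, HSPA8 exon 4 was still called when either MDH2 IP replicate 2 or SMI replicate 3 was left out, DNAJA1 exon 9 when either MDH2 IP replicate 3 or SMI replicate 2 was, and HSPA4 exon 12 when SMI replicate 2 was. None of the 3 was called when replicate 1 of either group was missing. With windows thinned so that they did not overlap and no site entered 2 of them, HSPA8 exon 4 and DNAJA1 exon 9 had too few counts to be tested and HSPA4 exon 12 was at −1.0 and not called (edgeR adjusted p = 0.0874). On these windows 3 other exons were called instead: HSPB1 exon 1, HSPA4 exon 21 and HSPH1 exon 17. HSPA4 exon 12 was also lost with the DESeq2 Wald test (adjusted p = 0.0552), with total counts as library size (edgeR adjusted p = 0.13) and without the filter on low counts (edgeR adjusted p = 0.0802). DNAJA1 exon 9 was lost with total counts (edgeR adjusted p = 0.0852), and HSPA8 exon 4 was kept in these 3 settings.

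**Figure D3:**
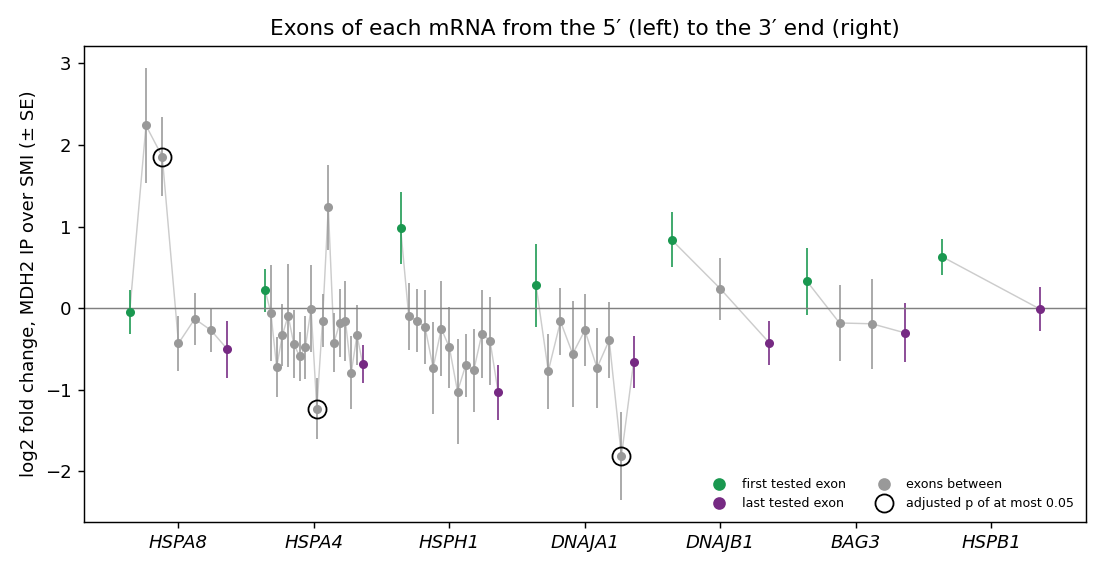
Log2 fold change of MDH2 IP over SMI (± SE) of each tested exon of the 7 mRNAs, ordered from the 5′ to the 3′ end within a gene, with the first and last tested exon coloured and a ring at an adjusted p of at most 0.05. The rings are on HSPA8 exon 4 (1.86), HSPA4 exon 12 (−1.23) and DNAJA1 exon 9 (−1.81), and in each gene the first exon lies above the last.

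Over IgG IP 0 of 46 member exons passed by edgeR, with 3 at an unadjusted p under 0.05 and 0 by DESeq2, where 0.184% of 42945 exons were called higher and 1.25% lower. HSPA4 exon 6 had 33, 13 and 21 counts after MDH2 IP and 0 in all 3 IgG IP libraries. It did not pass (edgeR adjusted p = 0.0875), and no fold is given, since a ratio to 0 counts has no defined size. DNAJB1 exon 4 had 82, 72 and 81 counts after MDH2 IP and 4, 4 and 8 in IgG IP, a log2 fold change of 1.3 that did not pass (SE 0.56, edgeR adjusted p = 0.28). Both exons entered the test through their MDH2 IP counts, since no IgG IP library reached 10.

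The first tested exon of each mRNA had a higher log2 fold change of MDH2 IP over SMI than the last, in 7 of 7. This comparison was chosen after the values were seen and is given without a test. The pair was −0.04 and −0.50 in HSPA8, 0.22 and −0.68 in HSPA4, 0.98 and −1.03 in HSPH1, 0.28 and −0.66 in DNAJA1, 0.84 and −0.42 in DNAJB1, 0.33 and −0.30 in BAG3, and 0.63 and −0.01 in HSPB1. The median difference was 0.89, beside a median of 0.77 over all 8420 protein-coding genes with at least 2 tested exons, of which 82.6% had the first exon above the last. The chaperone mRNAs thus stood near the rest of the transcriptome in this measure. Against IgG IP the first exon was above the last in 6 of 7 chaperone mRNAs with a median difference of 0.33, and in 51% of all 7172 such genes with a median difference of 0.02. The differences were 0.02 in DNAJA1 and HSPB1, 0.33 in HSPH1, 0.95 in HSPA4, 1.31 in DNAJB1, 1.43 in BAG3 and −0.21 in HSPA8. BAG3 exon 1 had only 3, 3 and 0 counts in IgG IP.

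As a share of the counts of the mRNA, exon 2 of HSPH1, the first tested, took 25.5%, 22.2% and 26.1% in MDH2 IP, 15.1%, 5.05% and 9.83% in SMI and 23.5%, 19.2% and 25% in IgG IP. The IgG IP libraries were thus nearer to MDH2 IP than to SMI, and MDH2 IP and SMI did not overlap. In DNAJB1, exon 4 took 25.5%, 31% and 26% in MDH2 IP, 17%, 13.4% and 16.2% in SMI and 8.7%, 21.1% and 18.2% in IgG IP, so here the IgG IP libraries lay below MDH2 IP. The first-exon share of MDH2 IP was above SMI in every library for 6 of 7 mRNAs, and overlapped for HSPA8. Over all 8420 genes of this comparison the same held for 37.7%. These genes, like those set beside the shares below, were not matched to the 7 mRNAs in counts. Whether the 7 differed from them was not tested.

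The share of the exon with most counts was compared with an exact two-sided permutation test over libraries, for which 3 against 3 cannot go below p = 0.1. The exon was ranked on counts pooled over the 9 libraries, and was the last or next to last for every mRNA but HSPB1, whose exon 1 has the most counts. For HSPH1 the pooled ranking was set by SMI: exon 17 had 111, 39 and 64 counts after MDH2 IP, fewer than the 162, 57 and 130 of exon 2. Between MDH2 IP and SMI the groups did not overlap for 4 of 7 mRNAs, each at the exact permutation p of 0.1, beside 34.4% of 11129 protein-coding genes with at least 2 exons. HSPA4 exon 21 held 22.1% ± 3.06 of counts after MDH2 IP and 27.2% ± 2.58 in SMI, HSPH1 exon 17 15.2% ± 2.30 and 25.1% ± 1.14, and DNAJB1 exon 8 42.2% ± 0.769 and 60.4% ± 10.6 (SD, n = 3). In HSPB1 exon 1 the share was the higher in MDH2 IP, at 79.4% ± 1.72 against 70.9% ± 1.29. HSPA8 exon 8 had nearly equal means, 66.3% ± 1.03 and 66.7% ± 3.56 (exact permutation p = 1.0). For DNAJA1 exon 10 and BAG3 exon 6 the MDH2 IP means were lower by −3.82 and −6.25 percentage points, with overlapping groups (exact permutation p = 0.2 for each). Against IgG IP 3 of 7 were apart, beside 21.3% of 9715 genes: HSPA8 exon 8 was higher by 7.56 points, and DNAJB1 exon 8 and BAG3 exon 6 were lower by −17.6 and −12.6 points. HSPB1 exon 1, with a share of 81.1% ± 9.8 in IgG IP, overlapped MDH2 IP (exact permutation p = 0.8).

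Along HSPA8 all 219 of 219 windows could be placed on the annotation. In all groups the counts were concentrated over the 9 exons of the reference transcript. The listed exon 8 runs from 123058252 to 123060426 and holds the fourth to eighth exons with the introns between them. Windows within the reference exons had 76.1%, 67.3% and 76.6% of the gene's counts after MDH2 IP, 77.5%, 75.4% and 80.1% in SMI and 69.1%, 65.5% and 74% in IgG IP. Windows inside introns and outside snoRNA genes had 4.74%, 5.26% and 5.72% in MDH2 IP, 1.61%, 1.07% and 2.81% in SMI and 4.05%, 13.1% and 9.92% in IgG IP. This split was chosen after the values were seen and has no test. Over the introns the shares of MDH2 IP and of IgG IP all exceeded those of SMI.

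The HSPA8 introns had 41.8 ± 20 CPM in MDH2 IP, 16.6 ± 12.9 CPM in SMI and 49.4 ± 22 CPM in IgG IP (SD, n = 3). The first intron, which holds the listed exons 3 and 4, had 97, 47 and 96 counts after MDH2 IP, 18, 14 and 34 in SMI and 28, 8 and 21 in IgG IP. The third intron had 45, 28 and 49 counts after MDH2 IP, 8, 3 and 43 in SMI and 5, 6 and 9 in IgG IP, so that SMI replicate 3 was within the MDH2 IP range. HSPA8 also hosts the box C/D snoRNAs SNORD14C, SNORD14D and SNORD14E in its introns on the same strand. Windows over them had 255, 288 and 171 counts after MDH2 IP, 234, 311 and 300 in SMI and 162, 17 and 26 in IgG IP, and counts there cannot be assigned to the mRNA or the snoRNA. Their level was 56.3 ± 12.2 CPM in MDH2 IP, 69.6 ± 2.61 CPM in SMI and 73.5 ± 61.5 CPM in IgG IP.

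**Figure D4:**
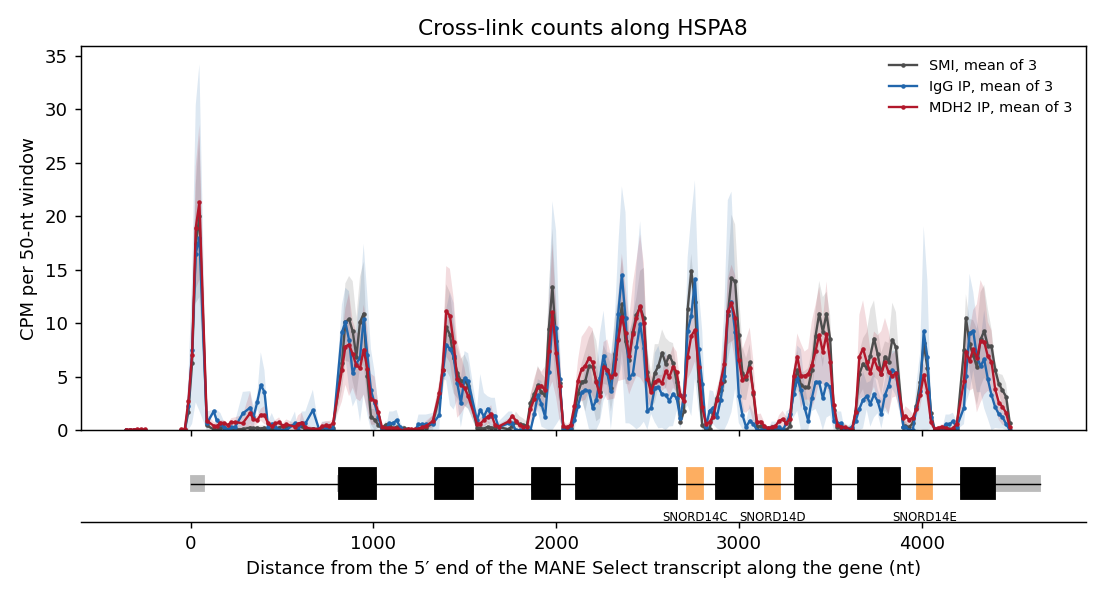
Mean CPM per 50-nt window along HSPA8 in MDH2 IP, SMI and IgG IP (lines, n = 3, with bands of ± SD), by distance in nt from the 5′ end of the reference transcript, above a map with coding exons in black, untranslated parts in grey and SNORD14 genes in orange. The MDH2 IP and SMI lines follow each other over the exons, and each line has its highest peak at the untranslated first exon. The IgG IP line is lower over some exons towards the 3′ end. Over the seventh it has 26.1 CPM in all, against 54.1 CPM in MDH2 IP and 57.5 CPM in SMI. Summed over the first intron SMI is lowest, with 5.45 CPM against 19.4 CPM in MDH2 IP and 26 CPM in IgG IP, while in single windows there the lines cross.

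HSPB1 differed from SMI mainly over its first exon, a split also made after the values were seen. The windows of this exon are placed to within 20 nt. They had 409, 297 and 357 counts after MDH2 IP, 152, 202 and 207 in SMI and 60, 28 and 33 in IgG IP, which is 85 ± 18, 46.2 ± 2.76 and 53.8 ± 9.15 CPM (SD, n = 3). The third exon, with the end of the coding sequence and the 3′ untranslated region, had 139, 78 and 117 counts after MDH2 IP, 84, 104 and 94 in SMI and 27, 3 and 10 in IgG IP. That is 26.6 ± 7.80, 23.3 ± 1.02 and 16 ± 9.92 CPM, with overlapping groups. At exon level neither passed: the listed exon 1 had a log2 fold change over SMI of 0.63 (SE 0.22, edgeR adjusted p = 0.0831) and the listed exon 2 a value of −0.01 (SE 0.27, edgeR adjusted p = 0.985). Exon 1 did pass on the windows that do not overlap and with total counts as library size. Over SMI exon 1 was above exon 2 by 0.65, beside a median first-minus-last difference of 0.77 over 8420 protein-coding genes. A higher first exon was thus not particular to HSPB1. Over IgG IP the listed exons 1 and 2 had near-equal log2 fold changes. These were 0.66 (SE 0.29, edgeR adjusted p = 0.285) and 0.64 (SE 0.46, edgeR adjusted p = 0.57).

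**Figure D5:**
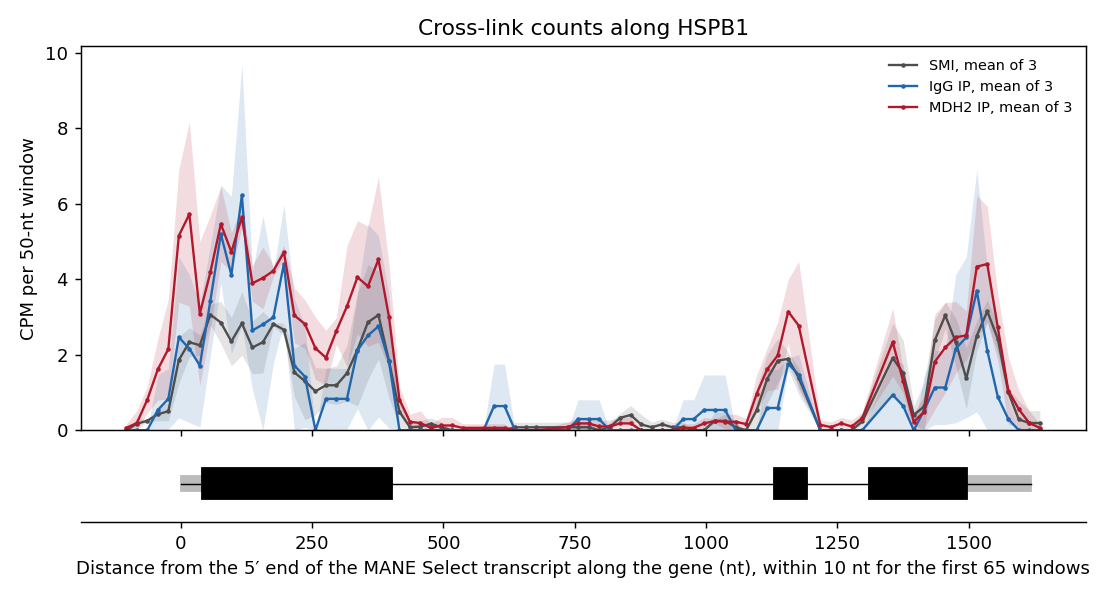
Mean CPM per 50-nt window along HSPB1 in MDH2 IP, SMI and IgG IP (lines, n = 3, with bands of ± SD), by distance in nt from the 5′ end of the reference transcript, above a map with coding exons in black and untranslated parts in grey. Over the first exon the MDH2 IP line lies above the SMI line, with 85 CPM in all against 46.2 CPM, while over the last exon they cross.

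Single windows were tested one-sided for enrichment, each p multiplied by the number of overlapping windows tested. In MDH2 IP over SMI 0 of 136 member windows were enriched (edgeR adjusted p at most 0.05 and log2 fold change at least 1), with a lowest adjusted p of 0.0563, where 4.04% of 51108 windows were called, and 0 were enriched by DESeq2. Of the 136 windows, 107 were in HSPA8, 24 in HSPB1, 4 in HSPA4 and 1 in DNAJA1, and no window of HSPH1, DNAJB1 or BAG3 had enough counts. 12 of the 136 (8.82%) had an unadjusted edgeR p under 0.05, all in HSPB1, beside 20.2% of all windows tested. HSPA8 windows had a median log2 fold change of −0.24 and a maximum of 0.30, whereas HSPB1 windows had a median of 0.68 and a maximum of 1.36.

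All 18 tested windows of HSPB1 exon 1 were above 0, from 0.22 to 1.36, and 4 of 6 in exon 2, from −0.65 to 0.67. Windows overlap, so these are not independent values. The window with the lowest p, over the start of the HSPB1 transcript, had 25, 15 and 24 counts after MDH2 IP, 9, 6 and 7 in SMI and 4, 0 and 2 in IgG IP. Its MDH2 IP counts were above all of its SMI counts, with a log2 fold change over SMI of 1.36 (SE 0.40, edgeR adjusted p = 0.0563). The IgG IP libraries were smaller, so their raw counts cannot be set directly against those of MDH2 IP. Relative to IgG IP the log2 fold change of this window was 0.83 (SE 0.65), and it was not called enriched. The window of HSPB1 with most counts had 30, 22 and 20 in MDH2 IP, 7, 16 and 12 in SMI and 3, 4 and 5 in IgG IP.

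Over IgG IP 0 of 102 member windows were enriched, with a lowest edgeR adjusted p of 1, where 0.148% of 30427 windows were called, and 0 were enriched by DESeq2. An unadjusted edgeR p under 0.05 was found for 4.9% of the member windows and for 10.4% of all windows tested. The strongest windows of the other mRNAs were weak beside the 550 counts of the HSPA8 first-exon window over the 9 libraries. They had 76 counts in HSPA4 exon 1, 59 in DNAJA1 exon 6, 52 in DNAJB1 exon 4, 45 in HSPH1 exon 2 and 23 in BAG3 exon 6. The HSPH1 window had 14, 5 and 13 counts after MDH2 IP, 3, 1 and 4 in SMI and 1, 0 and 4 in IgG IP, and it was under the count filter and not tested.

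The share of counts in windows listed as intron, which leaves out introns inside listed exons, is given as a description. It was below SMI in every MDH2 IP library for 3 of 7 mRNAs, beside 45.1% of 11231 protein-coding genes, so the members were near the background. Of all BAG3 counts, 40.6%, 40.8% and 42.9% fell in intron windows in MDH2 IP, 61.1%, 58% and 52.2% in SMI and 54.1%, 76.7% and 64.6% in IgG IP. HSPA4 had 29.5%, 27.1% and 26.6% in MDH2 IP, 42.6%, 38.3% and 35.1% in SMI and 32.3%, 53.5% and 34.1% in IgG IP. For both genes the MDH2 IP shares were all below the SMI and IgG IP shares. DNAJA1 had 20.5% to 23.4% in MDH2 IP, 24.3% to 30.2% in SMI and 15.6% to 42.1% in IgG IP, so that only SMI stood apart. HSPH1 (16.6% to 25.3% in MDH2 IP and 21.5% to 27.7% in SMI) and HSPA8 (3.47% to 6.45% and 3% to 4.13%) overlapped. For HSPA8 this share differs from the split along the gene given above, since it includes SNORD14E. Windows over SNORD14E held 71, 86 and 46 of its 142, 125 and 143 intron counts in MDH2 IP. In SMI they held 82, 97 and 99 of 105, 104 and 141. DNAJB1, with 5.31% to 8.53% in MDH2 IP and 4.43% to 5.76% in SMI, had the higher mean in MDH2 IP, 7.02% against 5.31%, and HSPB1 stayed at or below 1.18% in every library.

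The wider cytosolic HSP70 network was described by a list of 34 genes, of which 30 had exon windows. In MDH2 IP over SMI, 3 of the 28 tested were higher and 3 lower by edgeR, with a median log2 fold change of 0.05, beside 8.6% and 10.7% of all genes, so the counts were near the background. The J proteins DNAJB2 (0.83, SE 0.17, edgeR adjusted p = 0.0106) and DNAJC5, a J protein of secretory and synaptic vesicles (0.52, SE 0.16, edgeR adjusted p = 0.0488), and the myosin and HSP90 co-chaperone UNC45A (0.76, SE 0.14, edgeR adjusted p = 0.0061) were higher. The BAG protein BAG4 (−1.05, SE 0.16, edgeR adjusted p = 0.00212), the HSP90 partner SUGT1 (−1.18, SE 0.26, edgeR adjusted p = 0.0127) and the HSP110 protein HSPA4L (−0.77, SE 0.23, edgeR adjusted p = 0.0432) were lower.

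Against IgG IP, where 0.302% of all genes were called higher and 1.8% lower, 0 of 28 network genes were higher and 2 were lower, DNAJC5 at −1.20 (SE 0.24, edgeR adjusted p = 0.025) and DNAJB6, a J protein that suppresses aggregation, at −1.19 (SE 0.22, edgeR adjusted p = 0.017), and the median was 0.24. DNAJC5 had a mean of 220 ± 11.9 CPM in MDH2 IP, 150 ± 25.1 CPM in SMI and 492 ± 165 CPM in IgG IP (SD, n = 3), and DNAJB2 112 ± 15.4, 61.9 ± 8.22 and 153 ± 41.1 CPM. For both of these mRNAs the IgG IP mean was the highest of the 3. In IgG IP over SMI 4 of 27 network genes were higher, beside 9.58% of all genes, and 1 was lower, beside 5.98%. DNAJC5 (1.75, edgeR adjusted p = 0.00079) and DNAJB2 (1.35, edgeR adjusted p = 0.00304) were among the 4. UNC45A had 108 ± 4.54 CPM in MDH2 IP, 61.9 ± 2.76 CPM in SMI and 91.9 ± 17.2 CPM in IgG IP. BAG4 had 59.6 ± 0.991 CPM in MDH2 IP, 121 ± 17 CPM in SMI and 60.4 ± 9.29 CPM in IgG IP, near-equal means in the MDH2 IP and IgG IP libraries.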

How the data were processed

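The deposited table holds counts of cross-link sites made by the authors: reads were trimmed with cutadapt, aligned with STAR to hg38 (at most 10 alignments per read), cleared of PCR duplicates by molecular identifier, and sites were counted with htseq-clip in 50-nt windows, 20 nt apart, of GENCODE 23 genes. Of 34950 Ensembl identifiers, 96.6% matched GENCODE v44, which gave names and positions. Exon windows were summed per gene and per exon, also where an exon of the table spans introns or snoRNA genes of the current reference transcript. Counts are relative to the library total, so that absolute amounts of RNA were not compared. Between replicates, counts over genes differed by 2.29 to 6.59 chi-square per degree of freedom. These counts were taken from every 3rd window so that no site was counted again. Each library was counted as its own sample, though this spread does not show that replicates came from separate cultures.

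Genes, exons or windows with at least 10 counts in 3 of the 6 libraries compared were fitted in edgeR 4.0.16 (R 4.3.3) with TMM scaling and its quasi-likelihood test, two-sided and adjusted by Benjamini-Hochberg over all features tested, called at 0.05. Windows were tested one-sided as described in the results, also requiring a log2 fold change of 1. Intervals are ± 1.96 SE. DESeq2 1.42.0 was an alternative. Shares were compared with an exact permutation test. The text names all 9 listed genes, the exons called or extreme in log2 fold change, the strongest window of each gene, and network genes called against SMI or IgG IP. The members and lists were chosen with earlier results of these data known.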

Additional observations from a re-analysis of the deposited data

How the results depend on the processing

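Alternatives were DESeq2 size factors, total counts as library size, the DESeq2 Wald test, no filter on low counts, a filter of 5 counts and a log2 fold change of 2 for windows, a fit of all 9 libraries, windows thinned to those that do not overlap, intron windows included, a replicate block, and leaving out each library. Of 106 counts of calls recomputed, 86 were within 1.5 times the value reported. At gene level against SMI the count of 1 became 0 in the fit of all 9 libraries and ranged from 0 to 1 with a library left out. With intron windows included 2 mRNAs passed over IgG IP (HSPA4 at 0.63 and HSPB1 at 1.24) and 1 in IgG IP over SMI (HSPA4 at −0.63), and the HSPB1 value over SMI was 0.97. HSPB1 itself had 13 intron counts over the 9 libraries, beside 2759 exon counts. The setting also changed the library totals: 1134432 of 2942816 window counts were in exons in IgG IP replicate 1, and 5078220 of 9482501 in MDH2 IP replicate 1. What moved HSPB1 was not tested. At exon level against SMI the count ranged from 0 to 4 with a library left out, and over IgG IP it was 1 without the filter on low counts (HSPA8 exon 8). With total counts as library size 13 windows of HSPB1 were enriched over SMI, a setting that moved the median of all windows to 0.62, and the count of windows ranged from 0 to 1 with a library left out, the 1 being over the HSPB1 transcript start, without MDH2 IP replicate 2. Shares of the strongest exon were apart from IgG IP in 1 mRNA on the thinned windows, and in 3 to 6 with a library left out, 6 without IgG IP replicate 1.

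Changes of sign concerned values that had not passed. Over SMI these were HSPA8 and HSPH1 with total counts (0.06 and 0.02), and HSPA8, HSPH1 and BAG3 with introns (0.24, 0.12 and −0.05). In IgG IP over SMI HSPB1 was −0.11 without the filter and −0.18 with introns. With a library left out, the log2 fold change over SMI ranged from −0.44 to 0.17 for HSPA8, −0.40 to 0.28 for HSPH1, −0.69 to 0.03 for DNAJA1, −0.01 to 0.39 for DNAJB1 and −0.22 to 0.49 for BAG3. Over IgG IP it ranged from −0.12 to 0.59 for HSPA8, −0.23 to 0.39 for HSPH1 and −0.13 to 0.48 for DNAJA1. In IgG IP over SMI the ranges were −0.65 to 0.05 for HSPA8, −0.52 to 0.15 for HSPH1, −0.64 to 0.10 for DNAJB1, −0.63 to 0.08 for BAG3 and −0.06 to 0.19 for HSPB1. The cause was not tested.

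Replicate numbers are shared between groups, but same-numbered libraries deviated together only in part (r of 0.075, 0.485 and 0.497 for MDH2 IP and SMI, and −0.008, 0.222 and 0.258 for MDH2 IP and IgG IP), so they were not taken as pairs. With the replicate number as a block, 2 mRNAs passed over SMI (HSPB1 at 0.62 and DNAJA1 at −0.34), 13 exons (HSPB1 exon 1 among them) and 2 windows (both over the HSPB1 transcript start), while calls over all genes went from 2694 to 5815, and over IgG IP the counts stayed at 0. Every MDH2 IP library correlated best with its own number in SMI. The paper states that SMI was set aside from the input before the IP, so same-numbered libraries may share a lysate. The labels do not say whether they do, and the comparisons without the block leave such pairing out. Depth limits the IgG IP comparisons most, and features under the filter were not compared.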
